A study of Mus musculus with 9 samples.

Results

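The genes of the cytosolic ribosomal proteins were followed across 9 arrays of mouse Th17 cultures of 3 genotypes. Members were the genes with a probe set that carried 1 gene symbol beginning with Rpl or Rps and a digit, or the symbols Rplp0, Rplp1, Rplp2 and Rpsa. Pseudogene symbols ending in -ps and the ribosomal S6 kinases were left out, and the probe set with the highest mean stood for a gene. The rule found 69 genes of the 22180 compared. Of these, 58 encode core ribosomal proteins, 35 of the large and 23 of the small subunit. The other 11 are paralogs, retrogenes or genes named after a ribosomal protein (Rpl10l, Rpl22l1, Rpl32l, Rpl39l, Rpl3l, Rpl6l, Rpl7l1, Rps4l, Rps27l, Rps23rg1 and Rps19bp1).

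Naive CD4 T cells (CD4+CD25-CD44lowCD62Lhigh) had been sorted from mouse spleen and cultured for 60 h on plates coated with antibodies against CD3 and CD28 at 10 µg/ml each. The medium of all 3 groups held TGF-β1 at 1 ng/ml, IL-6 at 30 µg/ml as the labels write it, and antibodies that neutralize IL-4 and IFN-γ, at 2 µg/ml each, a mixture that turns naive cells into IL-17-producing T helper cells. The groups were wild type (WT), SRG3 cKO, a conditional knockout of the Swi/Snf chromatin remodelling subunit encoded by Smarcc1, and RORγt KO, which lacks the transcription factor of Th17 differentiation, with 3 arrays each. The labels used here name neither the Cre driver of the conditional allele nor the age of the mice. Biological replicates is their word for the 3 arrays, and whether each had its own mouse or culture is not said, so a p-value here speaks of array-to-array spread, which may be partly technical.

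A ribosome is built from ribosomal RNA and one copy of most of its proteins, so cells make these proteins in step. Their mRNAs are among the most abundant of a growing cell, and most begin with a 5′ terminal oligopyrimidine (TOP) tract, a C followed by a run of C and T, through which mTORC1 and LARP1 set how strongly they are translated. T cells enlarge and multiply ribosomes after activation, under the control of MYC and mTORC1. That control acts partly on translation, which an array of mRNA levels does not read.

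Most mRNAs of these genes are known to begin with a TOP tract. Windows around the start site are therefore shown for the 5 core genes with the longest runs of C and T. Rps6, Rps15 and Rpl7l1, which recur in the results, are shown for comparison. A marked run can lie before the start, so it need not be a TOP tract. Promoters came from the RefSeq table of build GRCm38.p6, which held 54 of the 69 members by gene ID. Each window runs from 25 bases before to 20 bases after the start, on the strand of the gene. Capitals mark the longest run of C and T between 20 bases before and 20 bases after the start where it has at least 6 bases.
Rpl7a: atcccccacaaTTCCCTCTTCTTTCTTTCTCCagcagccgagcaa
Rpl27a: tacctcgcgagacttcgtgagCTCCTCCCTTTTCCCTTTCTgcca
Rpl34: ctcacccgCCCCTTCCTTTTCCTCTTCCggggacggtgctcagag
Rpl35: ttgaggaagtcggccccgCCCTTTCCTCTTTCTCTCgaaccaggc
Rpl15: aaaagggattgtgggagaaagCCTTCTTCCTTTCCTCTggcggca
Rps6: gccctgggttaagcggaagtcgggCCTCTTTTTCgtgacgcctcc
Rps15: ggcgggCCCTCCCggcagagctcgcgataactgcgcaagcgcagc
Rpl7l1: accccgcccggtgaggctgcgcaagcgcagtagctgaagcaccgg

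The Rpl7a window lies at chr2:26910782-26910826 on the plus strand, and its run of 21 bases is the longest of those shown. The windows of Rpl27a at chr7:109519170-109519214 (plus strand) and Rpl34 at chr3:130730318-130730362 (minus strand) each hold a run of 20. Those of Rpl35 at chr2:39005112-39005156 and Rpl15 at chr14:18270967-18271011, both on the minus strand, hold runs of 18 and 17. The Rps6 window at chr4:86857348-86857392 (minus strand) has a run of 10 across the start. The Rps15 window at chr10:80292406-80292450 (plus strand) has a run of 7 that ends well before the start. The Rpl7l1 window at chr17:46782637-46782681 (minus strand) has no run longer than 3 bases near the start.

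Of the 52 promoters of 45 core genes in the table, 24 (46.2%) had a run of at least 8 bases in that stretch, beside 16.0% of all 32851 promoters. At least 10 bases were found in 32.7% of the core promoters and 7.39% of all. Over the whole 300 bases and on both strands, the letters CGGAAG, the core of an ETS factor motif, were in 61.5% of core promoters and 16.9% of all. The letters CTTTCC, which overlap pyrimidine runs, were in 40.4% and 26.6%, the E-box letters CACGTG, read by MYC and MAX among others, in 11.5% and 7.15%, and the TATA box letters TATAAA in 7.69% and 13.6%. These are matches of letters in a window and describe the promoters only.

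**Figure D1:**
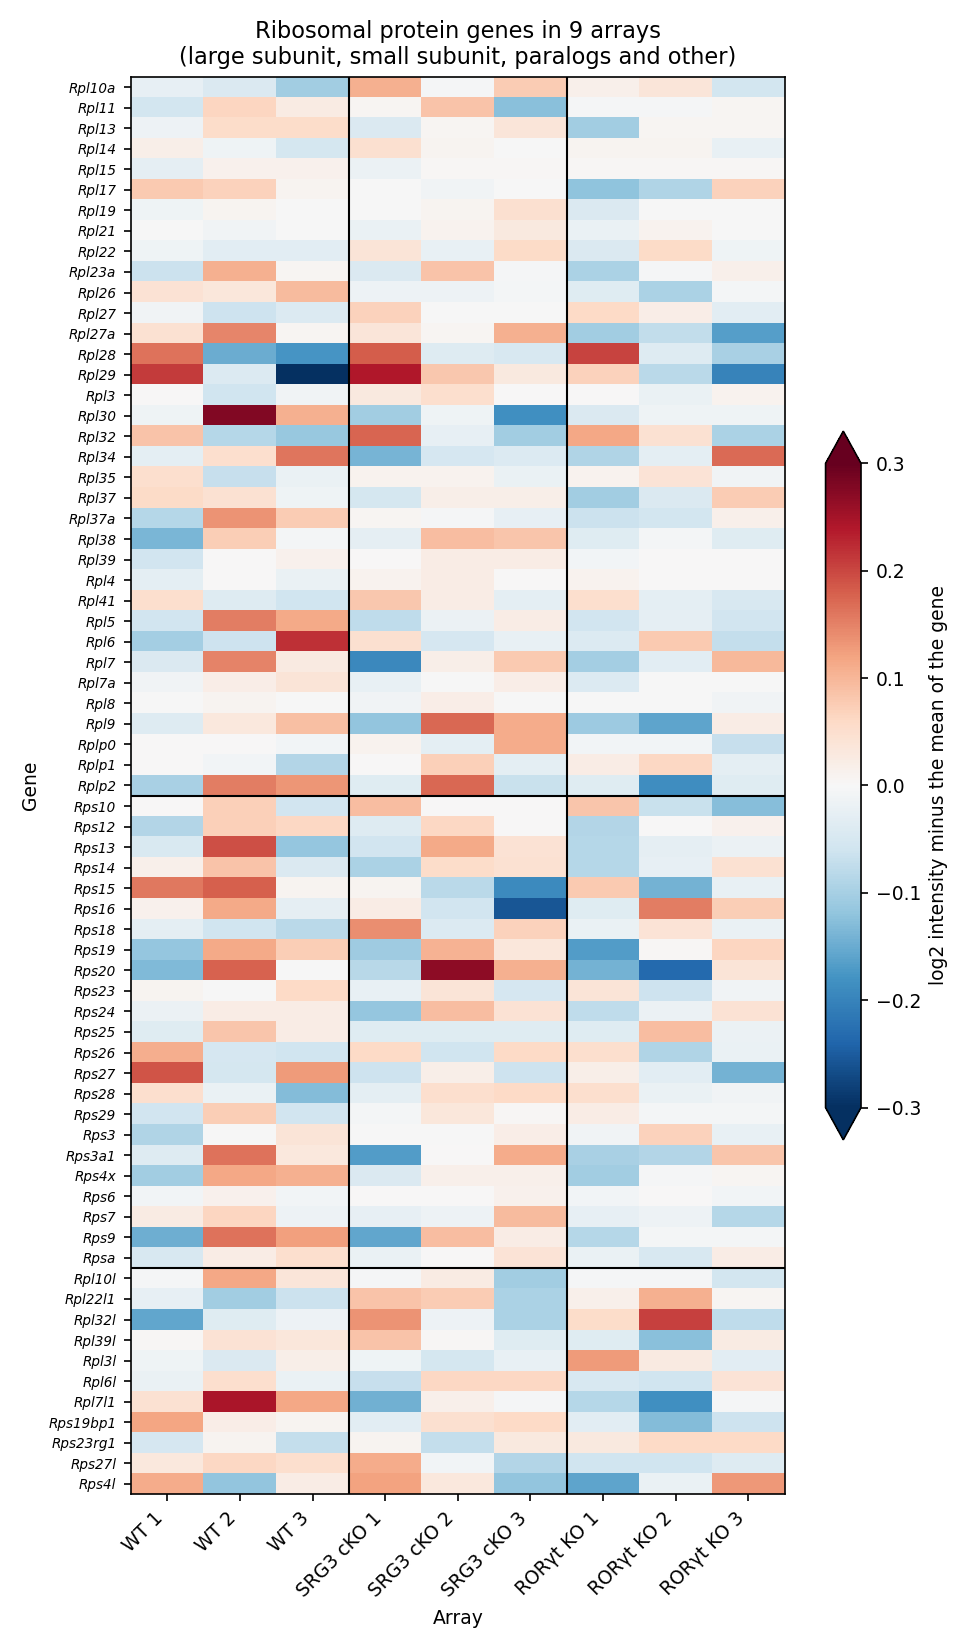
Each cell is the log2 intensity of 1 ribosomal protein gene (rows, by subunit) in 1 array (columns, by genotype) minus the mean of that gene over the 9 arrays; red is above and blue below the mean. No genotype forms a block of one colour, the rows of Rps6, Rpl8, Rpl4 and Rpl15 are nearly blank, and in Rpl28 and Rpl32 the arrays numbered 1 are red in all 3 genotypes.

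Most members gave bright signals. Their mean log2 intensities over the 9 arrays ran from 4.88 (Rpl22l1) to 13.23 (Rpl21) with a median of 10.49, whereas the median of all genes was 7.29. Of the 69 members, 60 lay above the median of all probe sets and 52 above its upper quartile of 8.23. The 9 members below the median were Rpl27a, Rpl30, Rplp2, Rps15 and Rps16 of the core and the paralogs Rpl10l, Rpl22l1, Rpl32l and Rpl3l. Rpl10l and Rpl3l are known as the germline and muscle forms of Rpl10 and Rpl3. Within genotypes the SD of a member had a median of 0.06, beside 0.0687 for all genes. It was smallest for Rpl8 (0.00834), Rps6 (0.00858) and Rpl4 (0.0115) and largest for Rpl29 (0.18), Rpl28 (0.16) and Rps20 (0.158). In the 16 members above 12 the median SD was 0.0432, beside 0.047 for all 88 genes at that level. Scanner images were not used here, and whether the brightest probe sets were near the top of the scanner's range was not tested.

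The SRG3 label was checked through its gene. Smarcc1 read 10.13 to 10.39 in WT, 8.47 to 8.79 in SRG3 cKO and 10.04 to 10.19 in RORγt KO, and it fell by 1.65 on the log2 scale in SRG3 cKO against WT (SE 0.09, 3.15-fold, limma adjusted p = 0.000207). The RORγt KO label was not checked against its gene. All 9 CD4 T cell markers measured of 10 listed lay above the upper quartile, with array means of 10.7 to 10.96, and 0 passed in SRG3 cKO or RORγt KO against WT or between them, with 4, 3 and 4 at an unadjusted p under 0.05 in limma beside 11.2%, 12.7% and 11.1% of all genes. Their median was 0.152 higher in SRG3 cKO than in WT, with 8 of 9 above 0, and 0.1092 higher in RORγt KO, with 7 of 9 above 0. The part of this shift in the results below was not tested. Of the CD8 and NK cell markers, 1 of 8 measured passed, in RORγt KO against WT and in the direct comparison. Of all genes 1.04% and 1.28% passed there. Klrd1, an NK receptor subunit, rose by 0.91 in RORγt KO against WT (adjusted p = 0.0202) and was lower by 1.11 in SRG3 cKO than in RORγt KO (log2 change -1.11, adjusted p = 0.00505). None of the 7 B cell, 10 myeloid and 3 erythroid markers measured passed, with at most 1 of each list at an unadjusted p under 0.05 in a comparison. The array means of those lists were 7.67 to 8.03, 6.63 to 6.71 and 6.82 to 6.88. On the first principal component (28.8% of variance) the arrays numbered 1 of WT (-1.38) and SRG3 cKO (3.98) and number 3 of RORγt KO (3.22) stood apart from the others of their groups, which lay at -10.5 and -11.8, -3.27 and -2.06, and 9.82 and 12.

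No ribosomal protein gene passed the test when SRG3 cKO was set against WT. Of the 69 members, 0 had an adjusted p under 0.05, and their log2 changes ran from -0.22 to 0.16 with a median of -0.0033, beside -0.0061 for all genes. Over all genes 116 passed, which is 0.523%. At an unadjusted p under 0.05 limma gave 5 members, 2 higher and 3 lower, beside 11.2% of all genes, and the smallest adjusted p of a member was 0.278. With the replicate number as a block it again called 0. The 95% interval of every member lay within a 1.5-fold change in either direction, and that of 60 within 1.2-fold. The outermost bounds were -0.38 for Rpl30 (1.3-fold) and 0.44 for Rpl29 (1.35-fold). These are bulk cultures, in which fewer cells of a type and less RNA per cell cannot be told apart, and with array medians of 7.12 to 7.14 all levels are relative to the other genes on the array.

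**Figure D2:**
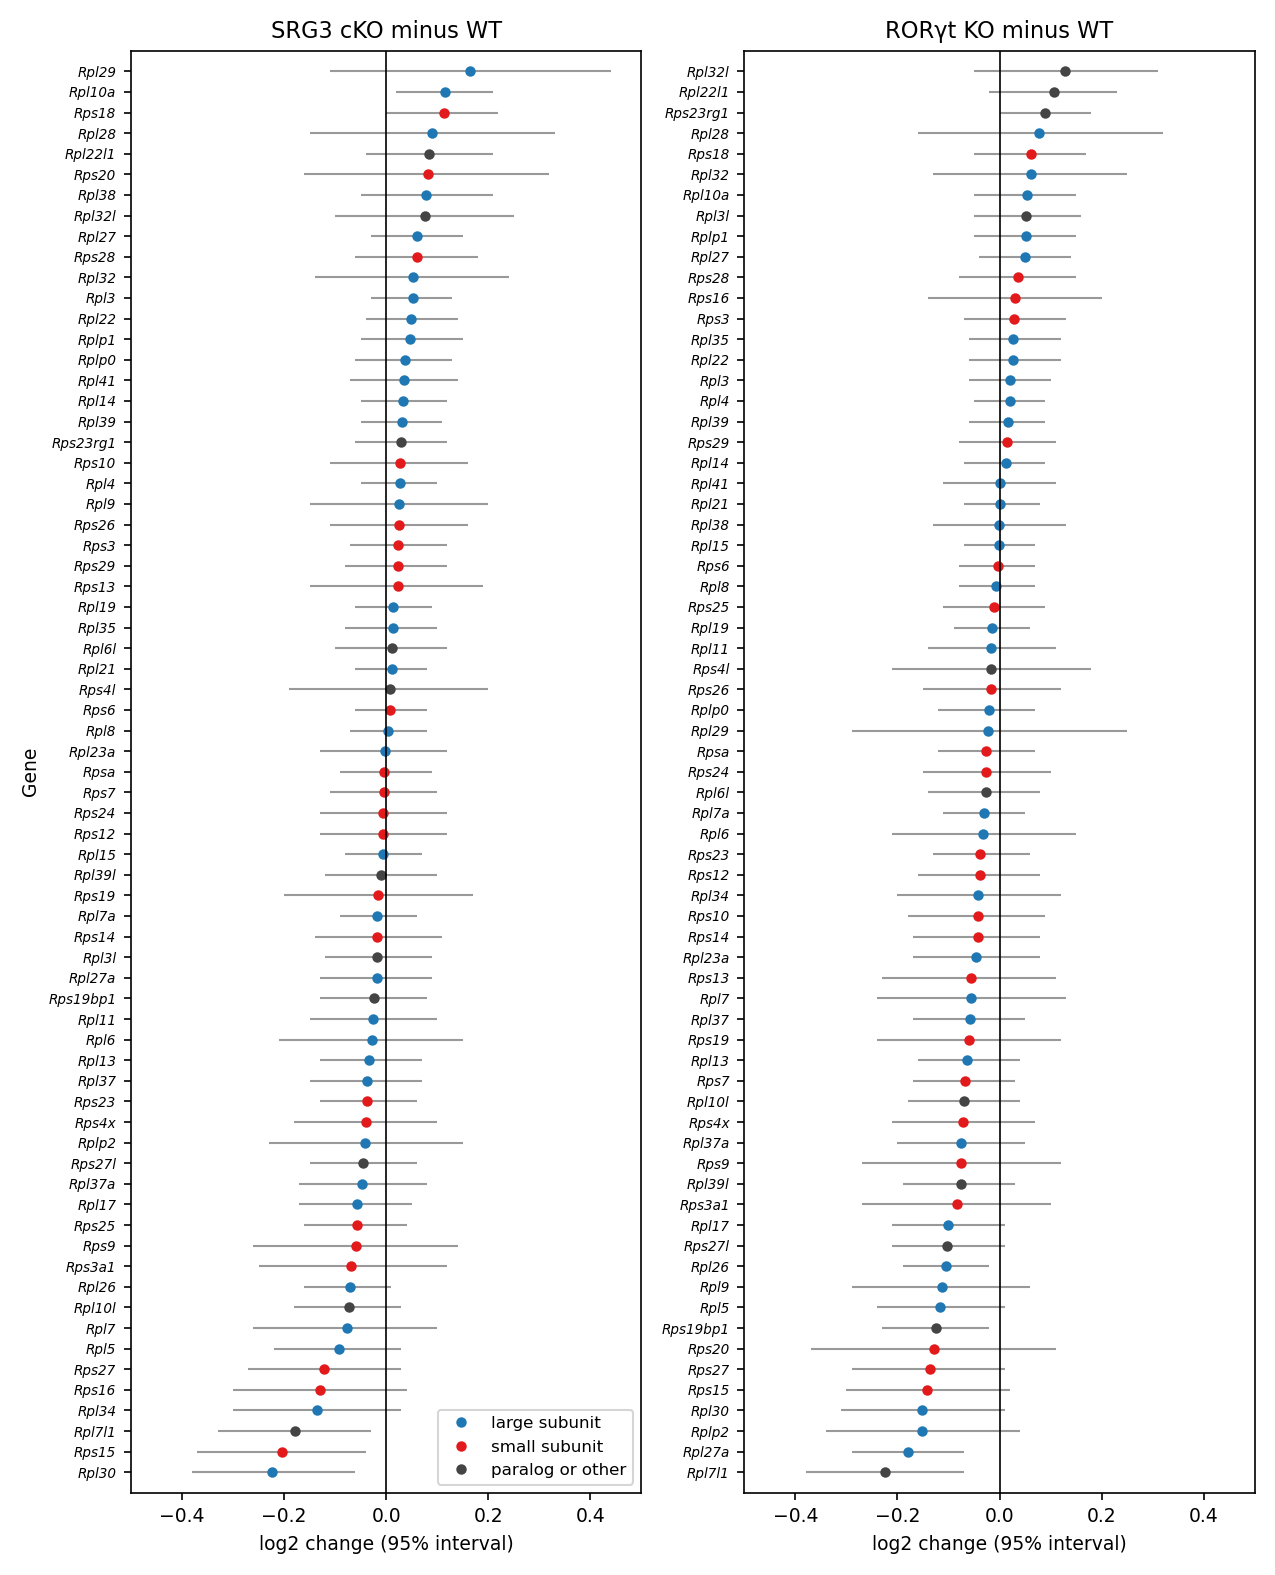
Points are log2 changes of the 69 members, sorted by size, against WT in SRG3 cKO (left) and in RORγt KO (right); bars are 95% intervals of the limma fit and colours mark the subunit. Changes against WT lie between -0.22 and 0.16 on the left and between -0.23 and 0.13 on the right, and the genotypes share the WT arrays.

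Among the large subunit genes the median change in SRG3 cKO was 0.011, and 19 of 35 lay above 0. Rpl30, a protein of the large subunit, read 6.80, 7.09 and 6.92 in WT, 6.71, 6.80 and 6.63 in SRG3 cKO and 6.77, 6.80 and 6.80 in RORγt KO. WT array 2 was the highest and SRG3 cKO array 3 the lowest, and the groups met at 6.80. The means were 6.94 ± 0.15 (SD, n = 3) in WT and 6.71 ± 0.0802 (n = 3) in SRG3 cKO, a difference that did not pass (log2 change -0.22, SE 0.07, limma adjusted p = 0.278). Rpl10a, of the mobile L1 stalk, read 10.93, 10.91 and 10.85 in WT, 11.06, 10.95 and 11.03 in SRG3 cKO and 10.97, 10.99 and 10.90 in RORγt KO. Every SRG3 cKO array was above every WT array, at a log2 change of 0.11 (SE 0.04, limma adjusted p = 0.385). Rpl29 read 13.01, 12.76 and 12.49 in WT, 13.04, 12.88 and 12.83 in SRG3 cKO and 12.87, 12.72 and 12.60 in RORγt KO. Its WT arrays alone spanned more than the difference between the means (log2 change 0.16, limma adjusted p = 0.664). The other large subunit genes named by size were Rpl34 at -0.14 and Rpl28 at 0.09, and neither passed.

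Among the small subunit genes the median was -0.0053, and 14 of 23 lay below 0. Rps15, near the decoding site, read 6.57, 6.59 and 6.42 in WT, 6.42, 6.33 and 6.22 in SRG3 cKO and 6.49, 6.27 and 6.39 in RORγt KO. SRG3 cKO and WT touched at 6.42, and the log2 change of -0.20 (SE 0.07) did not pass (limma adjusted p = 0.337). Rps16 was at -0.13 and Rps18 at 0.11, with adjusted p of 0.573 and 0.433. Rps6, the substrate of the S6 kinases, read 13.11, 13.13 and 13.11 in WT, 13.12, 13.12 and 13.13 in SRG3 cKO and 13.11, 13.12 and 13.11 in RORγt KO. All 9 arrays lay within that narrow span, and its 95% interval in SRG3 cKO against WT was -0.06 to 0.08.

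In every array of SRG3 cKO above every array of WT lay 2 members, Rpl10a and Rpl27, beside 7.04% of all genes. In the opposite direction there were 4, Rpl17, Rpl26, Rpl34 and Rpl7l1, beside 6.56%. Rpl17, Rpl26 and Rpl27 were named after their values were seen.

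Loss of RORγt also left every member short of the threshold. The log2 changes against WT ran from -0.23 to 0.13 with a median of -0.026, beside -0.0027 for all genes, and 47 of 69 lay below 0. Of all genes 230 passed (1.04%) and of the members 0. At an unadjusted p under 0.05 limma gave 4 members, all lower, beside 12.7% of all genes, and the smallest adjusted p was 0.17. With the replicate block the count stayed at 0. Every 95% interval again lay within 1.5-fold, 56 of 69 within 1.2-fold, and the outermost bounds were -0.38 (Rpl7l1) and 0.32 (Rpl28). This comparison and the one with SRG3 cKO share the 3 WT arrays, so a WT array that reads high or low enters both.

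The median was -0.016 for the large and -0.038 for the small subunit. Rpl27a, a large subunit protein whose window with a run of 20 pyrimidines is printed above, read 6.75, 6.85 and 6.71 in WT, 6.74, 6.71 and 6.81 in SRG3 cKO and 6.60, 6.63 and 6.54 in RORγt KO. Every RORγt KO array was below all 6 others. The means were 6.77 ± 0.0736 (SD, n = 3) in WT and 6.59 ± 0.0493 (n = 3) in RORγt KO, a log2 change of -0.18 (SE 0.05, 1.13-fold) that did not pass (limma adjusted p = 0.17). Its signal was dim, at percentile 38.1 of all probe sets on the array. Rplp2 and Rpl30 each stood at -0.15, Rps15 at -0.14, Rpl28 at 0.08 and Rps18 at 0.06, with adjusted p of 0.503, 0.419, 0.464, 0.826 and 0.66.

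Every RORγt KO array was above every WT array in 3 members, Rpl22l1, Rps18 and Rps23rg1, beside 6.9% of all genes. Every one was below in 6 members, Rpl26, Rpl27a, Rpl7l1, Rps19bp1, Rps27l and Rps7, beside 7.35%. Rpl26 and Rps7 were named after their values were seen.

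Set directly against each other, the 2 knockouts showed no member past the threshold. SRG3 cKO minus RORγt KO had a median of 0.022, beside -0.0012 for all genes, and 51 of 69 members lay above 0. Of all genes 283 passed (1.28%) and of the members 0. At an unadjusted p under 0.05 limma gave 1 member, Rpl27a, beside 11.1% of all genes, with a log2 difference of 0.16 and an adjusted p of 0.239. Rps20 was at 0.21, Rpl29 at 0.19, Rps16 at -0.16, Rpl34 at -0.09 and Rpl30 at -0.07, and none passed. Every SRG3 cKO array exceeded every RORγt KO array in 2 members, Rpl27a and Rps19bp1, beside 7.79% of all genes, and every one was below in 1, Rps23rg1, beside 6.82%. All 69 intervals lay within 1.5-fold and 63 within 1.2-fold.

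**Figure D3:**
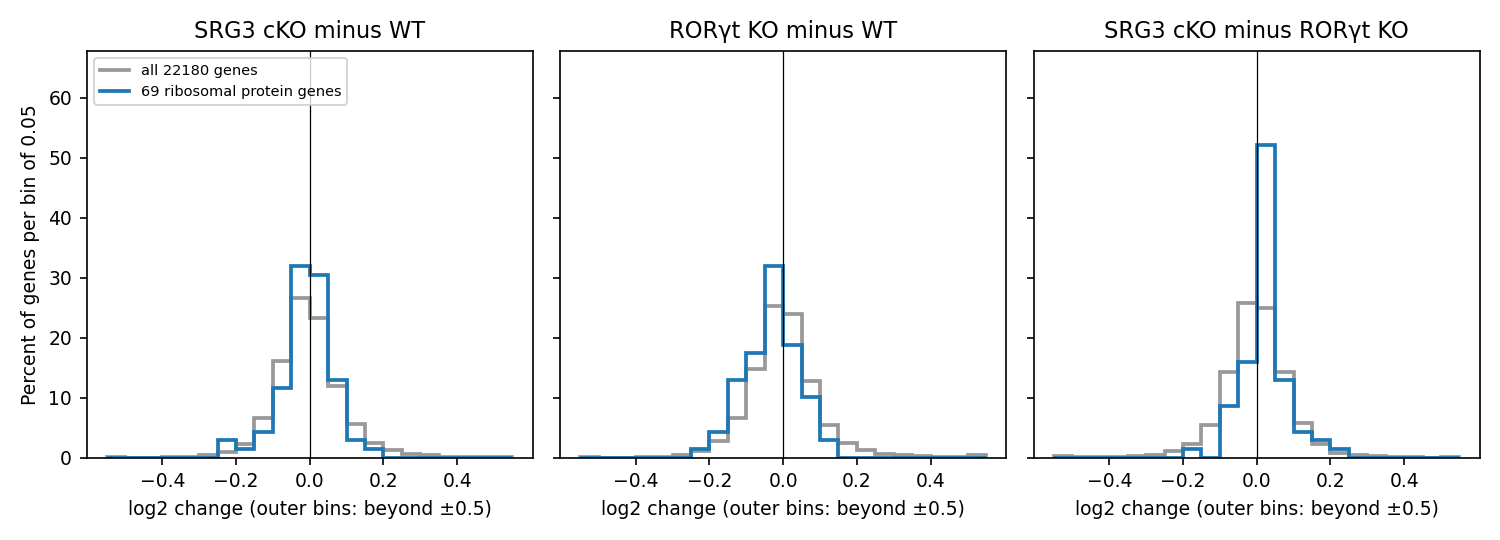
Percent of genes per bin of 0.05 in log2 change, for the 69 members (blue) and all 22180 genes compared (grey), in the 3 comparisons; the outermost bins hold everything beyond 0.5. The members have no gene beyond 0.25 in either direction, their peak sits just below 0 in RORγt KO minus WT, and 36 of 69 lie between 0 and 0.05 in SRG3 cKO minus RORγt KO.

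None of the 3 stalk protein genes, whose products recruit the GTPases of translation, passed. Rplp0 read 10.70, 10.70 and 10.69 in WT, 10.71, 10.67 and 10.81 in SRG3 cKO and 10.69, 10.69 and 10.63 in RORγt KO. Rplp1 had 95% intervals of -0.05 to 0.15 in both comparisons with WT. Rplp2, in a dim probe set, read 6.97, 7.22 and 7.20 in WT, 7.03, 7.24 and 7.0 in SRG3 cKO and 7.03, 6.88 and 7.03 in RORγt KO. Its WT and RORγt KO arrays overlapped, and the interval of that change was -0.34 to 0.04.

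Rpl5 and Rpl11 form the 5S ribonucleoprotein that holds Mdm2 when ribosome assembly stalls. Rpl5 read 8.55, 8.76 and 8.72 in WT, 8.53, 8.59 and 8.63 in SRG3 cKO and 8.55, 8.58 and 8.55 in RORγt KO. WT array 1 met both knockouts, and the log2 changes were -0.09 and -0.12 (limma adjusted p = 0.583 and 0.427). Rpl11 was at -0.03 and -0.02. Rps19 and Rps14, of which reduced dose is known from anaemias, were at -0.02 and -0.06 and at -0.02 and -0.04 in SRG3 cKO and RORγt KO. Rpl38, known for selective translation of Hox mRNAs, was at 0.08 and 0.00, and Rps25, needed for some internal ribosome entry sites, at -0.06 and -0.01. Rpsa, also called the laminin receptor precursor, was at 0.00 and -0.03, Rps3a1 at -0.07 and -0.08, and Rpl41, the shortest of the ribosomal proteins, at 0.03 and 0.00. None of these passed.

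Some paralogs are a means by which a cell could alter the make-up of its ribosomes. Whether the products of those measured here, Rpl7l1 among them, are part of finished ribosomes was not tested. The paired genes were read side by side within each gene across arrays. Rpl7l1, a paralog of Rpl7, was among the lowest members in both comparisons. It read 9.03, 9.23 and 9.10 in WT, 8.84, 9.0 and 8.98 in SRG3 cKO and 8.90, 8.80 and 8.98 in RORγt KO, so that all 6 knockout arrays lay below all 3 WT arrays. Its mean was 9.12 ± 0.0988 (SD, n = 3) in WT, 8.94 ± 0.0856 in SRG3 cKO and 8.89 ± 0.09 in RORγt KO. The log2 changes of -0.18 (SE 0.07, limma adjusted p = 0.371) and -0.23 (SE 0.07, adjusted p = 0.202) did not pass. Rpl7 itself was at -0.08 and -0.06. Rpl22l1, the paralog of Rpl22, read 4.86, 4.78 and 4.82 in WT, 4.97, 4.96 and 4.79 in SRG3 cKO and 4.90, 4.99 and 4.89 in RORγt KO. That signal is at percentile 10 of all probe sets on the array, and the changes of 0.08 and 0.11 had adjusted p of 0.622 and 0.474. Rpl22, known for a role in T cell development, was at 0.05 and 0.03.

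Rps27l, a p53 target and paralog of Rps27, was at -0.05 in SRG3 cKO and -0.10 in RORγt KO, and Rps27 at -0.12 and -0.14. Rpl3l was at -0.02 and 0.05 beside 0.05 and 0.02 for Rpl3, and Rpl39l at -0.01 and -0.08 beside 0.03 and 0.02 for Rpl39. Rps4l was at 0.01 and -0.02 beside -0.04 and -0.07 for Rps4x, and Rpl10l at -0.07 in both. Rpl32l and the retrogene Rps23rg1 were at 0.13 and 0.09 in RORγt KO, among the highest 3 changes there. Rps19bp1, which encodes a binding partner of Rps19 and no ribosomal protein, was at -0.02 and -0.12. None of these passed, and the smallest adjusted p among the 11 paralogs and other genes was 0.202.

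Ribosomal protein genes have many processed pseudogenes and near-identical copies in the genome, so a probe set can collect signal from more than 1 locus. Probe positions were not used here, and how far this holds for each probe set was not tested. Of the members, 25 had several probe sets, 66 in all, whose mean signals differed within a gene by a median of 3.58 and up to 5.81 log2 units. The sign of the change against WT differed between probe sets of a gene in 16 of the 25 in SRG3 cKO and 13 in RORγt KO. In these genes the changes spanned 0.03 (Rps12) to 0.56 (Rpl29) log2 units in SRG3 cKO. In RORγt KO they spanned 0.06 (Rplp1 among them) to 1.16 (Rpl29), so in some genes the signs differed between values near 0. No single probe set of a member passed when each was tested on its own (smallest adjusted p 0.436, 0.186 and 0.109 for SRG3 cKO and RORγt KO against WT and for the direct comparison).

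Rpl29 had the widest disagreement. The probe set not used, with a mean of 8.34, read 7.65, 7.69 and 8.95 in WT, 7.68, 7.72 and 7.70 in SRG3 cKO and 9.41, 9.23 and 9.05 in RORγt KO. The 3 RORγt KO arrays and 1 WT array read high, and the 2 other WT arrays lay with those of SRG3 cKO. The log2 changes of this probe set were -0.39 and 1.14 against WT and -1.53 in the direct comparison (limma adjusted p = 0.768, 0.265 and 0.109 over all probe sets). The brighter probe set, with the values given earlier, showed no such step. When the probe sets were averaged, Rpl29 was lower in SRG3 cKO than in RORγt KO by a log2 difference of -0.67 and passed (adjusted p = 0.0286), the only member to pass under any alternative.

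A further 14 genes, among them Rpl10, Rpl13a, Rpl23, Rpl36a and Rpl36al, were carried only by probe sets with several symbols and are outside the rule. Rps27rt shares its probe set with Rps27 and was counted under it. With the 13 others 82 genes were counted and again 0 passed, with medians of 0.021 in SRG3 cKO and -0.012 in RORγt KO. In this count the probe set of highest mean was picked again for every gene. A probe set of several symbols could then also stand for a member of the rule, so these medians can differ through those members too.

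Core genes were also read by whether their promoter held a pyrimidine run of at least 8 bases near the start. The 23 with a run had median log2 changes of -0.005 in SRG3 cKO, -0.017 in RORγt KO and 0.021 in the direct comparison. The 22 without had -0.011, -0.036 and 0.023, and the 13 with no promoter to search had medians of 0.011, -0.022 and 0.01. Rps15 and Rpl27a, near the lower ends of the 2 comparisons with WT, fall on either side of this split. The difference between these groups was not tested.

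In several members the arrays followed their number more than their genotype, a pattern seen only after the values had been examined. Rpl28 read 13.12, 12.81 and 12.78 in WT, 13.14, 12.92 and 12.91 in SRG3 cKO and 13.16, 12.92 and 12.86 in RORγt KO. The arrays numbered 1 stood above the other 6, and the number took 89.4% of the sum of squares of this gene beside 8.46% for genotype. Rps19 went the other way, at 10.70, 10.71 and 10.65 in the arrays numbered 1 of WT, SRG3 cKO and RORγt KO and at 10.82 to 10.93 in the others. Rpl32 and Rpl41 were higher in all arrays numbered 1, and Rpl13, Rpl23a, Rpl5, Rpl7, Rpl7a, Rps12, Rps24, Rps4x and Rps9 lower. With Rpl28 and Rps19 that makes 13 of 69 members (18.8%), beside 4.35% of all genes. The median share of the sum of squares was 35.8% for number and 27.1% for genotype in the members, and 22.9% and 29.9% in all genes.

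**Figure D4:**
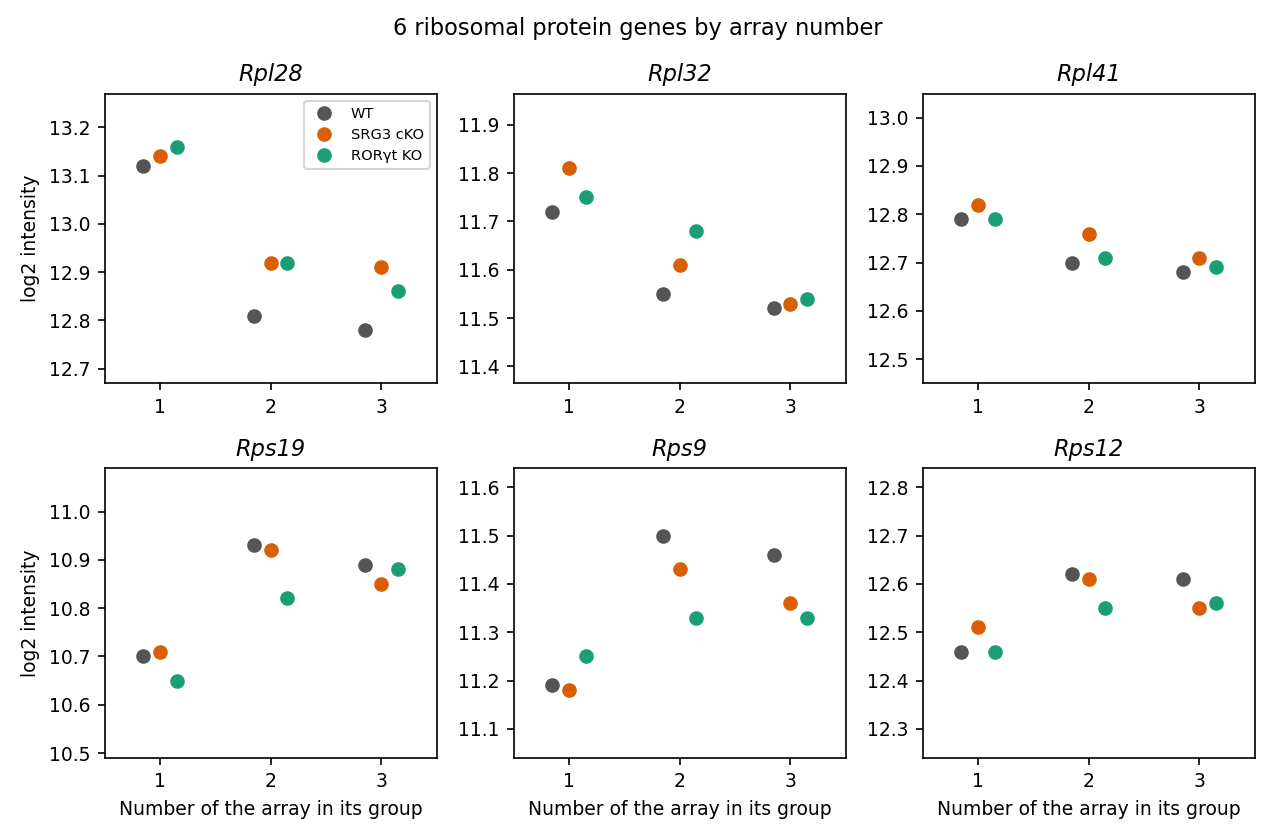
Log2 intensity of 6 members in each array, by the number of the array in its group (horizontal axis) and genotype (colour); all panels span 0.6 log2 units. The 3 arrays numbered 1 lie above the other 6 in Rpl28, Rpl32 and Rpl41 and below them in Rps19, Rps9 and Rps12.

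An F test of the number in an additive model, with limma over all genes, called 0 of 69 members, beside 14 of all genes (0.0631%). At an unadjusted p under 0.05 it gave 12 members (17.4%), beside 10.2% of all genes, and the smallest adjusted p was that of Rpl28 (0.0807). The labels do not say that a number marks a shared day or batch. Without the arrays numbered 1 the test again called 0 members in each comparison, with medians of -0.006, -0.029 and 0.017 for SRG3 cKO and RORγt KO against WT and the direct comparison. The part of a preparation or scan in the number pattern was not tested.

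The genes that build, feed and regulate the ribosome were read from lists, given here as counts and medians. Of 92 listed assembly factors 88 were measured, and in RORγt KO against WT 2 of them fell, 0 rose and 86 of 88 lay below 0. Of all genes 1.04% passed there. Rrp12, which helps to mature and export both subunits, read 9.72, 9.71 and 9.70 in WT, 9.64, 9.76 and 9.67 in SRG3 cKO and 9.35, 9.25 and 9.43 in RORγt KO. All 3 RORγt KO arrays lay below the other 6, and it fell by 0.37 (SE 0.05, 1.29-fold, limma adjusted p = 0.0144). Utp14a, of the small subunit processome, read 9.17, 9.22 and 9.24 in WT, 9.15, 9.16 and 9.13 in SRG3 cKO and 8.88, 8.83 and 9.01 in RORγt KO, and fell by 0.30 (SE 0.05, 1.24-fold, adjusted p = 0.0228). Both were also higher in SRG3 cKO than in RORγt KO, by 0.34 (limma adjusted p = 0.0123) and 0.24 (adjusted p = 0.0498, and 0.0565 with the replicate block). With the block 4 assembly factors passed in RORγt KO against WT, all lower. In the direct comparison 2 passed with it, both higher in SRG3 cKO, and Utp14a was not one of them. The median of the list was -0.167 in RORγt KO, where 63 of 88 had an unadjusted p under 0.05 in limma, all lower, beside 12.7% of all genes. In SRG3 cKO against WT it was -0.069 with 78 of 88 below 0, where 0 passed and 8 had such a p, all lower, beside 11.2%. In the direct comparison 19 had such a p, all higher in SRG3 cKO, beside 11.1%.

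These calls rested on few arrays. In RORγt KO against WT limma called 0 assembly factors without WT array 2 or 3 and without RORγt KO array 1 or 2. It also called 0 without the arrays numbered 1 and in a fit of only the 6 arrays compared. Without WT array 1 it called 6, without dim genes 5 and without RORγt KO array 3 it called 3. The count stayed at 2 under quantile normalization, both centrings and array weights, and was 1 with every probe set on its own. In the direct comparison the 2 calls became 0 without SRG3 cKO array 2, without RORγt KO array 1, without the arrays numbered 1 and in a fit of only the 6 arrays compared. There 1 was left under quantile normalization, with arrays centred on bright genes, with every probe set on its own, and without WT array 1, 2 or 3, SRG3 cKO array 1 or 3 or RORγt KO array 2. In RORγt KO against WT the list's median stayed between -0.209 and -0.125 when single arrays were left out. The arrays also spread within genotypes: per-array medians of the list were 0.002, 0.127 and 0.103 in WT, -0.023, 0.049 and -0.001 in SRG3 cKO and -0.095, -0.154 and -0.003 in RORγt KO, relative to the mean of each gene. The lowest WT array and the highest RORγt KO array nearly met. The corresponding medians of the ribosomal protein genes were -0.01, 0.026 and 0.006, then -0.006, 0.008 and 0.005, and then -0.032, -0.011 and -0.01.

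**Figure D5:**
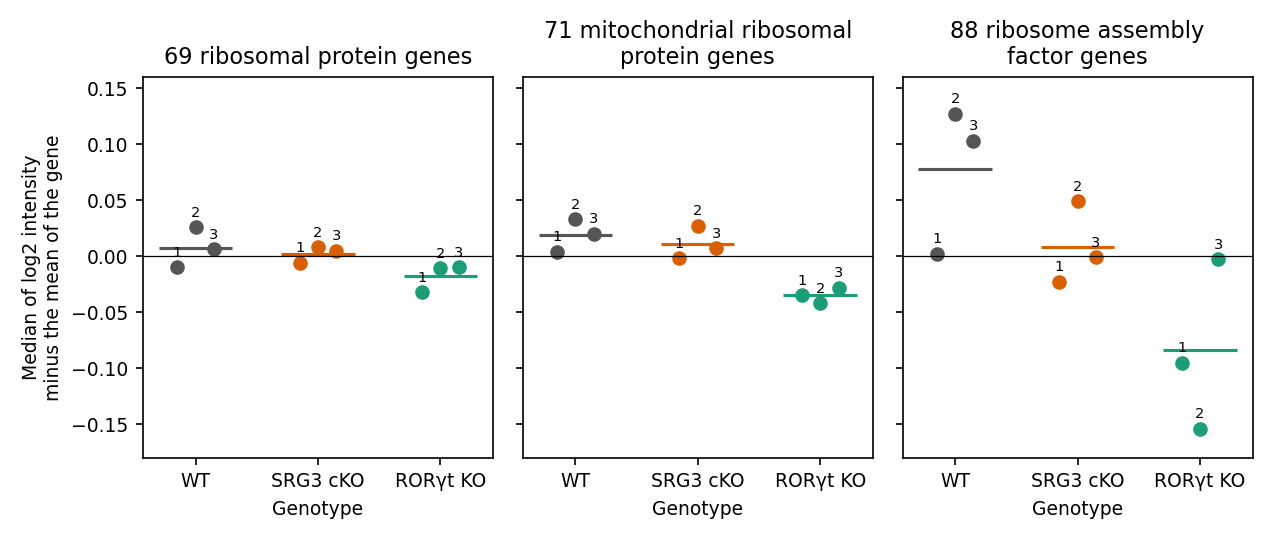
Median over the genes of a list of the log2 intensity minus the mean of the gene, for each array (points, with the array's number) and genotype (bars are means of 3 arrays), for the ribosomal protein, mitochondrial ribosomal protein and assembly factor genes. The ribosomal protein medians stay between -0.032 and 0.026, the assembly factor medians between -0.154 and 0.127.

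None of the 71 mitochondrial ribosomal protein genes, whose products translate the mitochondrial genome, passed in any comparison. Their median was -0.0755 in RORγt KO, with 58 of 71 below 0, and -0.0169 in SRG3 cKO. At an unadjusted p under 0.05 limma gave 9 in SRG3 cKO, 13 in the direct comparison and 21 in RORγt KO, where 20 were lower, and the largest change was that of Mrpl9 (-0.33, adjusted p = 0.141). The shares of all genes with such a p were 11.2%, 11.1% and 12.7%. With the replicate block 1 passed in RORγt KO, Mrpl27, which was higher (0.26, adjusted p = 0.24 without the block and 0.027 with it). Translation initiation factors (31 of 36 measured) and elongation and termination factors (12 measured) had 0 calls in any comparison. Their medians were -0.0738 and -0.1018 in RORγt KO, with 6 and 5 at an unadjusted p under 0.05, and -0.0239 and -0.0369 in SRG3 cKO, with 2 and 0, and in the direct comparison 3 and 1 had such a p. Abce1, which splits ribosomes after termination, was at -0.19 (adjusted p = 0.227), and Eif3b, of the initiation factor eIF3, at -0.18 (adjusted p = 0.21).

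Of 17 measured TOP mRNAs that encode no ribosomal protein, 0 passed against WT, with 1 and 4 at an unadjusted p under 0.05 in SRG3 cKO and RORγt KO. In the direct comparison 1 passed, beside 1.28% of all genes. Vim, the intermediate filament vimentin, was lower in SRG3 cKO than in RORγt KO (-0.48, limma adjusted p = 0.00919). The elongation factor Eef1a1 was at 0.05 and 0.02 against WT. Fau, the 1 measured of 3 listed ribosomal protein genes with another kind of name, was at 0.08 and 0.07. Of the RNA polymerase I genes (19 of 23 measured), 0 passed and the median in RORγt KO was -0.1084, with 6 at an unadjusted p under 0.05 and Ubtf, which opens ribosomal DNA for transcription, at -0.25 (adjusted p = 0.188). With the replicate block 1 passed there, Cd3eap, a polymerase I subunit, which was lower (-0.23, adjusted p = 0.134 without the block and 0.0485 with it). In SRG3 cKO the median of this list was -0.0146, 2 genes had an unadjusted p under 0.05, beside 5 in the direct comparison, and Polr2l was at -0.30 (adjusted p = 0.565).

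Among 28 of 31 MYC and mTORC1 regulators measured, 2 rose in RORγt KO and 1 of these in SRG3 cKO. Of all genes 1.04% and 0.523% passed there. The medians of the list were near 0, at -0.0012 in RORγt KO, 0.0225 in SRG3 cKO and 0.0214 in the direct comparison. In RORγt KO 14 lay above and 14 below 0. At an unadjusted p under 0.05 limma gave 5, 3 and 3, beside 12.7%, 11.2% and 11.1% of all genes. Sesn3, a sestrin that restrains mTORC1, read 10.12, 10.10 and 10.09 in WT, 10.94, 10.72 and 10.70 in SRG3 cKO and 10.92, 10.96 and 10.83 in RORγt KO. All knockout arrays lay above all WT arrays, and it rose by 0.68 (SE 0.06, limma adjusted p = 0.00319) and 0.80 (SE 0.06, adjusted p = 0.000497). Mxd1, a MAX partner that opposes MYC, read 8.87, 8.72 and 8.76 in WT and 9.04, 9.09 and 9.01 in RORγt KO and rose by 0.26 (SE 0.05, adjusted p = 0.0342). Myc was at 0.19 and 0.07 against WT, Mtor at 0.02 and -0.01 and Larp1 at -0.06 and -0.11, and none of these passed. With the replicate block 3 regulators passed in RORγt KO, Sesn3, Mxd1 and Sesn2, of which Sesn2 was lower (-0.24, adjusted p = 0.646 without the block and 0.0323 with it). Of the ribosomal S6 kinases 6 of 10 were measured and 0 passed, with 2, 0 and 1 at an unadjusted p under 0.05 in limma and Rps6ka3 at 0.30 in SRG3 cKO (adjusted p = 0.0641).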

How the data were processed

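The 9 Th17 samples were each measured on 1 GeneChip array of 41345 probe sets. Values were used as deposited by the authors, log2 intensities per probe set in the series matrix. For background correction, probe summary and normalization the method is not stated in the labels or file header. Scanner output was not analysed here. Medians of the arrays were 7.12 to 7.14. The number of arrays limits the precision. All sample columns were used (0 unused). Of the probe sets, 23521 carried 1 symbol, 1814 several and 16010 none. Symbols were matched by gene ID to the RefSeq table of GRCm38.p6 (23328 matched). Each gene was read from its probe set of highest mean, which gave 22180 genes.

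All 9 arrays were fitted together with limma 3.58.1 in R 4.3.3, without a block, and p-values were adjusted over all genes per comparison (Benjamini-Hochberg, threshold 0.05). A gene is said to rise or fall only where it passed. Intervals are 95%. The members and lists were chosen with earlier results of these data known, so no p-value was adjusted over a list. Named were members that passed, the 5 largest changes per direction against WT and 3 in the direct comparison, members listed for their roles, and per list the genes that passed or the largest change, with others chosen after their values were seen: Rpl4, Rpl8, Rpl15, Rpl13, Rpl17, Rpl21, Rpl23a, Rpl26, Rpl27, Rpl32, Rpl35, Rpl7a, Rps12, Rps24, Rps7 and Rps9, and of the lists Eef1a1, Eif3b, Cd3eap, Mrpl27, Sesn2, Myc, Mtor and Larp1. Promoters were searched with Python 3.11.15.

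The replicate numbers in the labels were checked for pairing through the correlation, over all genes, of the deviations of same-numbered arrays from their group means. It was 0.287, 0.186 and 0.116 for SRG3 cKO and WT, which were taken as paired, 0.215, -0.00527 and 0.186 for RORγt KO and WT, and 0.223, -0.00544 and 0.137 for the 2 knockouts. The intervals and p-values printed for SRG3 cKO against WT still come from the fit without the block and so leave this pairing out. With the block 0 members passed there, and the smallest adjusted p was 0.145. Alternatives covered normalization, centring, dim genes, probe sets, variance model, array weights, arrays in the fit, the block, threshold and membership. Those without the arrays numbered 1, the test of the number and the alternatives for assembly factors were added after seeing the data.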

Additional observations from a re-analysis of the deposited data

How the results depend on the processing

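The count of ribosomal protein genes that passed was 0 in all 3 comparisons under every alternative run except 1: with the mean of all probe sets of a gene, Rpl29 passed in the direct comparison, a count of 1. Leaving out single arrays gave counts of 0 to 0 throughout, and the replicate block, in the fit of 9 arrays or of the 6 arrays compared, gave 0. The median change of the members, -0.003 in SRG3 cKO against WT, lay between -0.012 and 0.009 with single arrays left out and was 0.021 with probe sets of several symbols. In RORγt KO against WT the median of -0.026 lay between -0.044 and -0.01 with single arrays left out and was -0.012 with probe sets of several symbols. In the direct comparison the median of 0.022 lay between 0.011 and 0.03, and it was -0.001 when arrays were centred on bright genes outside the members. The cause of these moves was not tested. Named members gave 2430 values under alternatives. Of these, 2412 kept their sign or moved by less than the SD of the gene within genotypes. A value that kept its sign was counted whatever the size of its move. Counts over all genes depended more on the arrays: 116, 230 and 283 became 18 to 87, 45 to 322 and 138 to 261 with single arrays left out, 195, 374 and 368 with the replicate block, and 1, 25 and 16 without the arrays numbered 1, which leaves 6 arrays. In fits of only the 6 arrays compared they were 13, 43 and 142, and with the replicate block there 32, 63 and 131. Groups of 3 arrays limit what can be seen: the outermost interval bound of a member, that of Rpl29 in the direct comparison, was 0.46 on the log2 scale (1.37-fold). That bound holds only for the probe set of highest mean. The other Rpl29 probe set was at -1.53 in the same comparison.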
